A study of Mus musculus with 58 samples.

Results

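Liver of mice given the lowest dose of benz(a)anthracene (BaA) was compared with liver of vehicle controls. The comparison took the 5 arrays labelled D1 and the 5 labelled D0 in liver, 10 of 58 arrays in the series. All animals were male Muta™Mouse of about 10 weeks, a transgenic strain whose genome carries a bacterial reporter for scoring mutations. D1 mice (numbers 6 to 10) received BaA in olive oil at 20 mg/kg-bw/day by oral gavage on 28 days, and D0 mice (numbers 1 to 5) received olive oil alone on the same schedule. Livers were taken 72 h after the last gavage. The other liver groups used here were D2 (40 mg/kg-bw/day, 5 mice) and D3 (80 mg/kg-bw/day, 4 mice), and lung and forestomach of the same D0 and D1 mice served for comparison between tissues. On every array the Cy5 dye labelled RNA of 1 tissue of 1 mouse, and the Cy3 dye labelled a reference RNA pooled from 11 mouse cell lines. Levels below are log2 ratios of tissue over reference, and a log2 change is D1 minus D0.

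BaA is a polycyclic aromatic hydrocarbon. Compounds of this class bind the aryl hydrocarbon receptor (AhR), which then enters the nucleus, pairs with Arnt and activates genes such as Cyp1a1 and Cyp1a2 through the xenobiotic response element. The Cyp1 enzymes in turn convert the hydrocarbons to DNA-reactive metabolites, and DNA damage can activate p53 targets such as Cdkn1a and Mdm2. Several of the genes that changed here belong to another compartment of biology, the nuclear bodies in which RNA is stored and processed. Neat1 is the long noncoding RNA around which paraspeckles form, Malat1 is a long noncoding RNA of nuclear speckles, and SR proteins, CLK kinases and cyclin L proteins are components or regulators of the splicing machinery found in speckles.

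The promoters of 3 genes described below show where the core letters of the xenobiotic response element occur in them. They run from 250 bases before to 50 bases after a start site, in RefSeq's GRCm38.p6 build, 5′ to 3′ along the gene, with the core GCGTG (or CACGC on the other strand) in capitals. Cyp1a1 is the textbook AhR target (chr9:57697363-57697662, plus strand), Col5a3 is the protein-coding gene with the largest decrease (chr9:20815018-20815317, minus strand), and Ccnl2 is the next (chr4:155812239-155812538, plus strand).
Cyp1a1: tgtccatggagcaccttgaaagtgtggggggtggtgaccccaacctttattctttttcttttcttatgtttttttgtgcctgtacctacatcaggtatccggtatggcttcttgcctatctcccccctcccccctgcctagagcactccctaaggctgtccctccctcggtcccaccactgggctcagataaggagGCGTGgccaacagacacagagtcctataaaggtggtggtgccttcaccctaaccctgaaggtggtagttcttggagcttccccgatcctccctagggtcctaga
Col5a3: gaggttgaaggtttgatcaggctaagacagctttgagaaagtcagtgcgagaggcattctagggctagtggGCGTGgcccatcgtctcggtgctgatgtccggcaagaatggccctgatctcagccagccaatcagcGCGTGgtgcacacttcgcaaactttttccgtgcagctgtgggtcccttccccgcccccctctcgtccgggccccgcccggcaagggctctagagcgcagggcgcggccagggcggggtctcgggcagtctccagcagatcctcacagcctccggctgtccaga
Ccnl2: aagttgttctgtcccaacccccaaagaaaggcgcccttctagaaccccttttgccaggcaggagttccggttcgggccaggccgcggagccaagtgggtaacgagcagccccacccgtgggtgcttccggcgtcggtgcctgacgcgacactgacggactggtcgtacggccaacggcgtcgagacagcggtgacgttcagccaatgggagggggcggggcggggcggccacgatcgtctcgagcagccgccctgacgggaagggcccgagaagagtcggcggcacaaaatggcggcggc
The window of Cyp1a1 held 1 core, that of Col5a3 held 2 and that of Ccnl2 none. Of the 30 genes called in the comparison, 25 had promoters in the RefSeq table, with 34 windows, and 41.2% of these windows held GCGTG on either strand. The share was 48.5% over the windows of genes tested in liver and 32.4% over all windows in the table, so the called genes did not stand above the tested genes. The E-box CACGTG occurred in 5.88% of the windows of called genes and in 9.86% of those of tested genes. The heat shock element pair GAANNTTC occurred in 2.94% and 5.90%, respectively. A match to such short letters describes the window and is no binding site. Letters around the core and sites outside the windows were not examined.

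Before the results, 1 control array has to be described. For most of the genes that differed, the liver of D0 mouse 5 lay with the dosed mice and not with the other 4 controls. The mean log2 ratio over the 54 probes called lower at D1 was 0.59, 0.31, 0.46 and 0.43 in D0 mice 1 to 4 and -0.52 in D0 mouse 5. It was between -0.86 and -0.74 in the 5 D1 mice. Across all called probes with a value for D0 mouse 5, lower or higher, this mouse lay a median of 81.0% of the way from the other controls to the D1 mean. The main counts below are therefore given with and without this mouse. It was singled out by its values on these probes, so leaving it out is expected to enlarge their differences. Values without D0 mouse 5 are thus a description and no separate test. Over all tested probes its correlation with the other D0 arrays was 0.9726 to 0.9752 (median 0.974) and with the D1 arrays 0.966 to 0.985 (median 0.978). Pairs among the other 4 D0 arrays correlated at 0.970 to 0.985 (median 0.980). Those 4 correlated with the D1 arrays at 0.956 to 0.985 (median 0.976), and the D1 arrays with each other at 0.965 to 0.989 (median 0.976). The highest correlation of mouse 5 with a D1 array (0.9854) was thus slightly above the highest of the other controls (0.9851). By the medians, mouse 5 was closer to the D1 arrays than to the other D0 arrays. The other 4 controls were closer to each other than to the D1 arrays. The arrays came from 3 slides that each held D0 and D1 mice, and mouse 5 shared its slide with D0 mouse 2 and D1 mice 8 and 10. Between 36.1% and 45.7% of the gene spots on the D0 arrays were well above background in Cy5, the highest share being that of mouse 5, and between 35.8% and 42.7% on the D1 arrays. The scanner software flagged 1.12% of its spots as outliers, the highest share of the 58 arrays, against at most 0.612% on any other. The part of these properties in the results was not tested, and neither was whether the array carries the right group label. The control mean and each call rest on that label. All 8 hepatocyte markers were measured, with a mean log2 ratio of 6.89 to 7.51 at D0 and 6.88 to 7.43 at D1, so the tissue matched its label.

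Of 22789 probes tested, 55 were called (FDR P of at most 0.05 and a change of at least 1.5-fold), which is 0.241% of them. Decreases made up 54 of the calls (0.237%) and 1 was an increase (0.00439%). The called probes represented 30 genes with a symbol and 24 probes without one. An unadjusted p under 0.05 was found for 1095 probes that were lower (4.8%) and 617 that were higher (2.71%), and the median log2 change over all tested probes was -0.0016. Without D0 mouse 5, 168 probes were called (0.737%), 165 lower and 3 higher, and these included all 55. That all 55 were kept follows in part from how this mouse was singled out. The count was 2 when only the 10 D0 and D1 arrays entered the fit, 138 when these 10 were used without D0 mouse 5, 18 with median centring in place of loess, and 22 to 51 when any 1 of the other 9 mice was left out. The 5 D1 values lay wholly outside the range of the 5 D0 values for 31 of the 55 called probes, against 1.28% of all tested probes. Without D0 mouse 5 this held for all 55, against 4.02%. Within slides, all 55 probes kept their direction on each of the 3 slides, with a median difference over the decreases of -0.95, -1.12 and -0.68, the last being the slide of mouse 5. The probes were called on these same arrays. Their lack of overlap and their direction within slides are thus largely set by that choice and are no replication. None of the 55 differed in the Cy3 reference channel at an unadjusted p under 0.05.

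**Figure D1:**
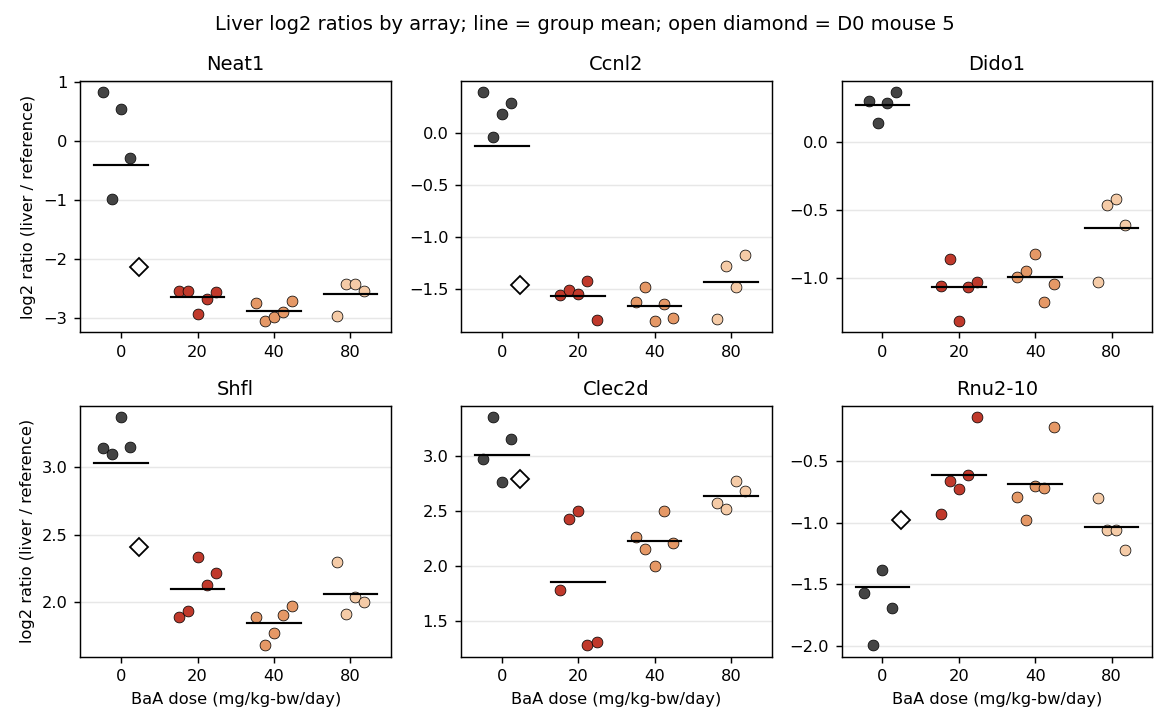
Log2 ratio (liver over reference, vertical axis) of 6 called genes against the BaA dose (groups D0 to D3), with 1 point per array, a line at each group mean and an open diamond for D0 mouse 5. For Neat1, Ccnl2 and Shfl the diamond lies apart from the other controls and near the dosed mice, for Clec2d it lies among the controls, and Dido1 has no value for it.

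Neat1 had the largest decrease. Its log2 ratio (probe for NR_003513) was 0.82, -0.99, 0.55, -0.29 and -2.14 in D0 mice 1 to 5 and -2.54, -2.54, -2.93, -2.68 and -2.57 in D1 mice 6 to 10. The groups did not overlap, but D0 mouse 5 lay closer to the D1 mice than to any other control. Neat1 fell by 2.24 on the log2 scale (SE 0.36, adjusted p = 0.00768), a 4.73-fold decrease, and by 2.67 or 6.38-fold without D0 mouse 5 (adjusted p = 5.24e-06). The SE rests on a spread pooled over the 4 dose groups. For Neat1, Col5a3 and Ccnl2 the controls varied more than any dosed group. Their SE and adjusted p with all mice therefore understate the spread of the controls. For Gm4956, Dido1 and Clec2d the D1 mice varied more than the controls. The array carried 5 further probes named NEAT1, from a set designed for long noncoding RNAs. All 5 were called, with changes of -2.27 to -1.95. For 4 of them the groups did not overlap, and for the other D0 mouse 5 (-2.03) lay just below the highest D1 mouse (-2.01). The calls of 3 of the 5 depended on D0 mouse 1, 3 or 4 (adjusted p up to 0.0627 without 1 of them or of D1 mouse 10). Malat1, the neighbouring speckle RNA, was at -3.09 to -3.44 in D0 and at -3.50 to -3.99 in D1, without overlap. Its change of -0.53 (SE 0.11) had an adjusted p of 0.0298 but did not reach 1.5-fold, and here D0 mouse 5 (-3.38) lay within the control range. Meg3, an imprinted noncoding RNA, was at 1.41, 1.36, 1.13, 0.68 and -0.50 in D0 and -0.67, -0.24, 0.12, -0.57 and 0.63 in D1. It was not called with all mice (change -0.96, adjusted p = 0.224) and was called without D0 mouse 5 (change -1.29, adjusted p = 0.00147). Of the 7 nuclear long RNAs measured, Neat1 was thus the only one called with all mice, and the median of the list was -0.15. The 10 genes for paraspeckle proteins, which assemble on Neat1, had no called member and a median of -0.03.

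Genes for splicing and other steps of mRNA metabolism were among the decreases. Ccnl2, cyclin L2 of nuclear speckles, was at 0.39, -0.04, 0.18, 0.29 and -1.46 in D0 mice 1 to 5 and at -1.56, -1.51, -1.55, -1.42 and -1.80 in D1. The D1 mice lay within a narrow range below 4 of the controls, and D0 mouse 5 lay among them. Ccnl2 fell by 1.44 (SE 0.24, adjusted p = 0.00929), or 2.71-fold, and 3.42-fold without D0 mouse 5. Pnn, which encodes pinin, an SR-related protein of speckles, was at -0.57, -0.74, -0.60, -0.69 and -1.27 in D0 and at -1.59, -1.57, -1.38, -1.33 and -1.56 in D1. The groups did not overlap and Pnn fell by 0.71 (SE 0.12, adjusted p = 0.0119, and 0.0506 without D0 mouse 1). Ddx17, a DEAD-box RNA helicase, fell 1.99-fold (change -0.99, SE 0.17, adjusted p = 0.00929). Nxf1, the receptor that exports bulk mRNA from the nucleus, was at -0.95 to -1.13 in D0 mice 1 to 4, at -1.67 in D0 mouse 5 and at -2.02 to -1.82 in D1. Nxf1 fell 1.67-fold (change -0.74, SE 0.12, adjusted p = 0.00768). Smg1, the kinase of nonsense-mediated decay, fell by 0.66 and Hnrnph1, a splicing regulator, by 0.58 on the log2 scale. Hnrnph1 depended on single animals, since omitting 1 of 7 of them raised its adjusted p above the threshold (to 0.113 at most).

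The list of SR proteins, CLK kinases and speckle proteins, 32 genes of which 29 were measured, put these values in context. Ccnl2 and Pnn were its called members, both lower, and none was higher. Its median log2 change was -0.32, against -0.0083 over 12044 genes with 1 probe each, of which 27 were called lower. An unadjusted p under 0.05 with a decrease was found for 17 of the 29 (58.6%), against 5.32% of all genes. This list, like the others here, was chosen with earlier results of these data known. Its shares and means therefore describe the list and are no test of it. The uncalled members with the smallest p were Rbm39 (-0.51, adjusted p = 0.0564), Tra2a (-0.47, adjusted p = 0.0602), Rbm25 (-0.37, adjusted p = 0.0665) and Rbm5 (-0.34, adjusted p = 0.0677), all RNA-binding proteins of splicing. The mean log2 ratio of the 29 genes was -0.54, -0.72, -0.63, -0.70 and -0.90 in D0 mice 1 to 5 and between -1.07 and -1.03 in D1. No D1 mouse reached the range of the controls. The median of the list was negative in all settings tried (-0.36 to -0.22). Without D0 mouse 5 the called members were 7, with Srsf5, Srsf7, Clk1, Clk2 and Pnisr in addition to the pair above, and the median was -0.36. In that setting 79 of the 12044 genes were called lower.

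**Figure D2:**
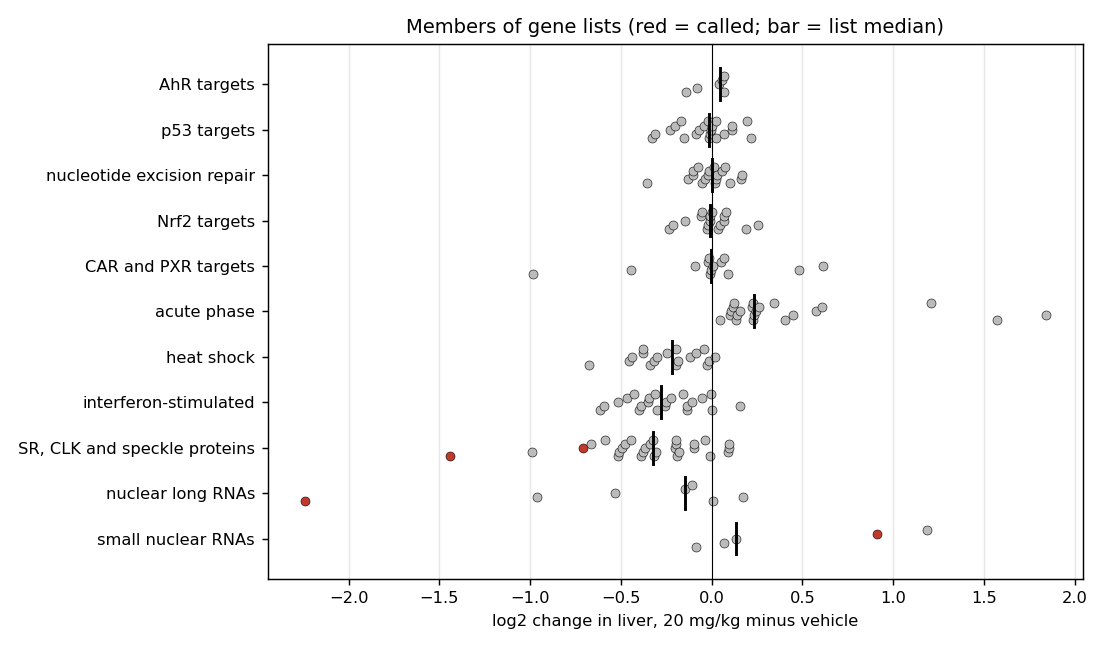
Log2 change in liver at 20 mg/kg (D1 minus D0, horizontal axis) of each measured member of 11 gene lists, with 1 point per gene, called members in red and a bar at the list median. The AhR, p53, Nrf2 and repair lists centre on 0, the SR, CLK and speckle list lies mostly below 0 with median -0.32, and the acute phase list lies above 0 with median 0.23 (-0.01 on slides 1 and 2 alone) and no called member.

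The other called genes were of mixed function. Dido1, which encodes a chromatin-binding protein linked to transcription and splicing, had the smallest adjusted p. Its log2 ratio was 0.30, 0.14, 0.29 and 0.36 in D0 mice 1 to 4 and -1.06, -0.86, -1.31, -1.07 and -1.03 in D1, and the spot of D0 mouse 5 was flagged as an outlier by the scanner software and dropped. Dido1 fell 2.53-fold (change -1.34, SE 0.12, adjusted p = 2.28e-05) with 4 controls. Col5a3, a chain of type V collagen, was at 1.29, 1.51, 1.29, 1.32 and -0.90 in D0 and at -0.98, -0.60, -1.02, -0.58 and -0.78 in D1. The control group was thus split, and the decrease of 3.24-fold (change -1.69, SE 0.33, adjusted p = 0.0240) had an adjusted p of 3.27e-07 without D0 mouse 5 and of 0.0916 at most when 1 of 8 other mice was omitted, each of which ended the call. Ogt, the enzyme that attaches O-GlcNAc to nuclear and cytosolic proteins, was at -0.36, -0.30, -0.54, -0.26 and -1.12 in D0 and at -1.43 to -1.22 in D1. Ogt fell 1.78-fold (change -0.83, SE 0.14, adjusted p = 0.00857). Crebzf, a bZIP co-regulator, fell 1.72-fold (adjusted p = 0.00294).

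Shfl and Clec2d, genes of defence and immune recognition, differed in where D0 mouse 5 lay. Shfl, an interferon-induced inhibitor of ribosomal frameshifting, was at 3.14, 3.096, 3.37, 3.15 and 2.41 in D0 and at 1.89, 1.94, 2.33, 2.13 and 2.22 in D1. Shfl fell 1.91-fold (change -0.93, SE 0.14, adjusted p = 0.00575). Clec2d, a lectin-like ligand of receptors on natural killer cells, was at 2.97, 3.35, 2.76, 3.15 and 2.79 in D0 and at 1.78, 2.42, 2.503, 1.28 and 1.30 in D1. For Clec2d all 5 controls lay together and above all D1 mice, and the decrease was 2.21-fold (change -1.15, SE 0.20, adjusted p = 0.0119, and 0.0514 without D0 mouse 4). Lrrc45, a centrosome protein, behaved in the same way, with -0.84 to -1.12 in D0 and -1.70 to -1.33 in D1 (change -0.62, SE 0.11, adjusted p = 0.00929). Of the 54 called probes with a value for D0 mouse 5, 48 had it nearer to the D1 mean than to the mean of the other controls.

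The remaining called genes fell by 0.59 to 1.34 on the log2 scale. Gm4956 and Pisd-ps3, both transcribed pseudogenes whose probes may also read their parent genes, changed by -1.34 (adjusted p = 0.0491) and -1.18 (adjusted p = 0.0261). Tmod4, a tropomodulin that caps actin filaments, was at 0.70 to 0.83 in D0 mice 1 to 4, at -0.19 in D0 mouse 5 and at -0.46 to -0.29 in D1 (change -0.92, adjusted p = 0.00768). Lime1, a membrane adaptor of lymphocytes, was called with both of its probes, at -0.87 and -0.64. The zinc finger genes Zfp692 and Zfp760 changed by -0.86 and -0.63, Fam193b by -0.91, Ankrd16 by -0.83, 1700029I15Rik by -0.81 and Igflr1, a cell surface receptor, by -0.80. Echdc2, of the enoyl-CoA hydratase family, changed by -0.76, Rabep2, an endosomal Rab effector, by -0.63, Synj2bp of the outer mitochondrial membrane by -0.62, the noncoding RNA 4831440E17Rik by -0.60 and Tmc4 by -0.59. The calls of Gm4956, Echdc2, 1700029I15Rik, Fam193b, Rabep2 and Tmc4 and of the second Lime1 probe each ended when 1 of 8 or 9 mice was omitted, and those of Pisd-ps3, 4831440E17Rik, Zfp760, Synj2bp, Igflr1 and Ankrd16 when 1 of 4 to 7 was. In all, 21 of the 55 probes kept their call whichever 1 mouse was left out.

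The 1 increase was that of Rnu2-10, a gene for the U2 small nuclear RNA of the spliceosome. Its log2 ratio was -1.57, -1.997, -1.39, -1.69 and -0.98 in D0 and -0.93, -0.66, -0.73, -0.61 and -0.14 in D1. The groups did not overlap, though D0 mouse 5 was next to the lowest D1 mouse. Rnu2-10 rose 1.88-fold (change 0.91, SE 0.17, adjusted p = 0.0216, and 0.0812 at most when 1 of 5 mice was omitted). Rnu1b6, a U1 small nuclear RNA, was at -1.21, -2.41, -1.77, -1.77 and -0.16 in D0 and at -0.10, -0.57, -0.90, 0.19 and -0.00 in D1. With all mice its change of 1.19 had an adjusted p of 0.134, and without D0 mouse 5 it was called at 1.51 (adjusted p = 0.00228). Both genes belong to multicopy families, so a probe may read several copies. Rnu7 and Rnu12, at 0.07 and 0.13, were not called. Of the 5 small nuclear RNAs measured, 4 had a positive change and 1 a negative one (-0.09).

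Probes of the same gene did not always give the same value. The 2 probes for Ccnl2 (both NM_207678) changed by -1.44 and -0.02. For Dido1 the called probe changed by -1.34, and the other 2 changed by -0.08 and 0.01. For Synj2bp the values were -0.62 for the called probe and 0.04 and 0.15 for the others, and for Ogt they were -0.83 and -0.23. For Ccnl2, Dido1 and Synj2bp the uncalled probes were thus near 0. For Ogt (unadjusted p = 0.0457 for the uncalled probe), Crebzf (-0.78 and -0.30) and Echdc2 (-0.76 and -0.54) the uncalled probe had the same sign. Which part of a transcript each probe reads was not analysed here.

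Among the 24 called probes without a symbol, 16 came from the set for long noncoding RNAs, which made up 29.1% of the called probes and 13.8% of those tested. The 5 NEAT1 probes are among these 16, and other loci also have several probes, so the share counts probes and not transcripts. The others are named by their interval in build mm9. Of 3 called probes in chr13:48620882-48643532, the one with the largest change was at 0.19, 0.13, -0.23, 0.28 and -1.14 in D0 and at -1.64, -1.62, -1.56, -1.22 and -1.80 in D1 (change -1.42, adjusted p = 0.00279). Another of the 3, which was not well above background on any D1 array, gave a bound of at least 1.94-fold lower (adjusted p = 0.0153). In chr5:123582742-123588117, 3 probes were called, and the first was at 1.30 to 1.55 in D0 mice 1 to 4, at -0.15 in D0 mouse 5 and at -0.52 to -0.21 in D1 (change -1.40, adjusted p = 0.0119). A called probe of the overlapping interval chr5:123582742-123588202 changed by -1.21. The probe for NR_026976, singled out after its values were seen, was at 0.23 to 0.85 in all 5 controls and at -0.74 to -0.39 in D1. It was not well above background on any D1 array, so the decrease was at least 1.89-fold (adjusted p = 7.2e-05), and here D0 mouse 5 lay just below the other controls. A bound of this kind sets the mean of the D0 arrays against the higher of the probe's own D1 signal and the dimmest signal still well above background. For both probes the own D1 signal was the higher, so each bound is the observed difference in Cy5 signal. The adjusted p beside each bound belongs to the change in log2 ratio.

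No AhR target gene was called. Cyp1a1 and the AhR repressor Ahrr were too dim to be tested: Cyp1a1 was well above background on 1 of the 10 arrays and Ahrr on none. Cyp1a2, the main Cyp1 enzyme of liver, was at 5.18, 4.47, 5.16, 4.92 and 4.62 in D0 and at 5.10, 5.27, 4.58, 5.13 and 4.61 in D1. The groups overlapped fully, and the change was 0.07 (SE 0.16, 95% interval -0.26 to 0.40, adjusted p = 0.982). Cyp1b1 changed by -0.14 (interval -0.56 to 0.27) and was well above background on 5 of the 10 arrays. Tiparp, a poly-ADP-ribose polymerase of the AhR feedback loop, changed by 0.05 (interval -0.32 to 0.43). The quinone reductase Nqo1 changed by 0.07 (interval -0.21 to 0.35), Aldh3a1 by -0.08 (-0.41 to 0.26) and the glucuronosyltransferase gene Ugt1a6a by 0.04 (-0.25 to 0.33). None of the 6 measured AhR targets had an unadjusted p under 0.05 and the median of the list was 0.05. For Cyp1a2, Tiparp, Nqo1 and Aldh3a1, well above background on all 10 arrays, the upper ends of the intervals lie under 0.58, which is 1.5-fold on this scale. Cyp1b1 and Ugt1a6a (7 of 10 arrays) were partly at background, where ratios are compressed, and give no such limit. Of the list of AhR pathway components, Ahr, Arnt, Ptges3, Por, Hsp90aa1 and Hsp90ab1 were not called either.

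**Figure D3:**
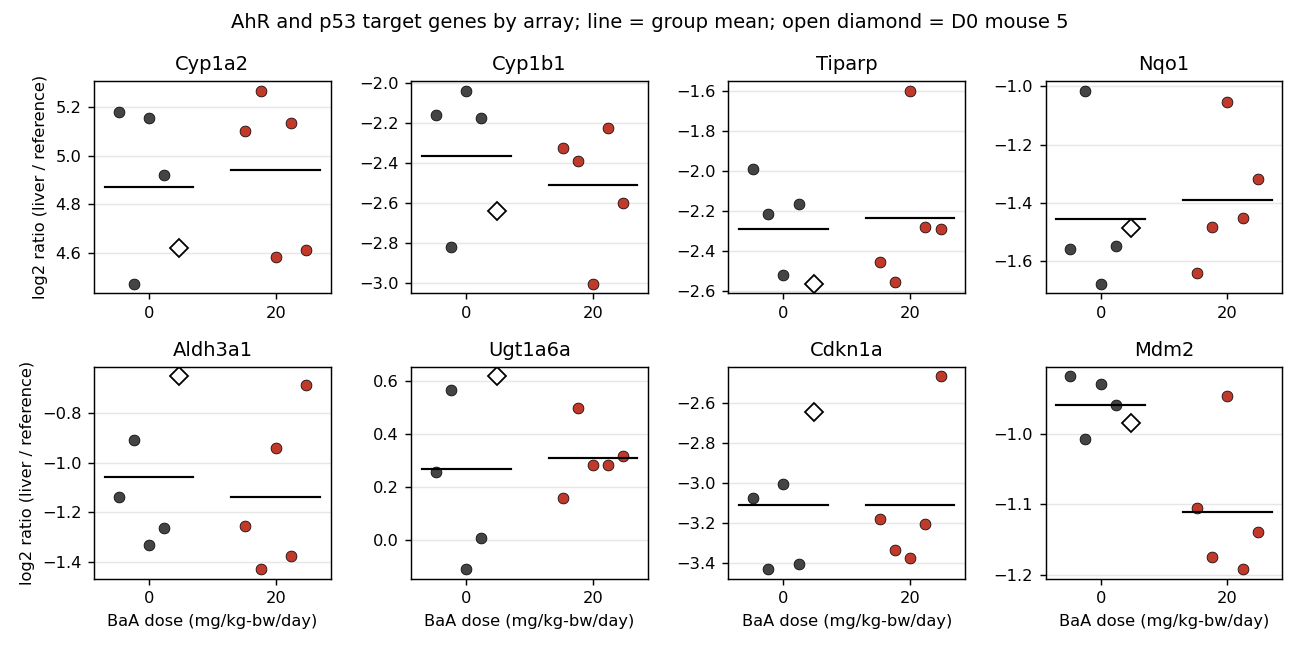
Log2 ratio (liver over reference, vertical axis) of 6 AhR target genes and the p53 targets Cdkn1a and Mdm2 at 0 and 20 mg/kg-bw/day, with 1 point per array, a line at the group mean and an open diamond for D0 mouse 5. In each panel the values of both groups overlap.

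No member of the p53 target and nucleotide excision repair lists was called. Cdkn1a, the p21 cell cycle inhibitor, was at -3.07, -3.43, -3.01, -3.41 and -2.64 in D0 and at -3.18, -3.33, -3.37, -3.20 and -2.47 in D1 (95% interval of the change -0.39 to 0.39, adjusted p = 0.9997). Mdm2, the ubiquitin ligase of p53, changed by -0.15 (interval -0.31 to 0.00, adjusted p = 0.673). The interval was -0.26 to 0.25 for Ccng1 and -0.14 to 0.19 for the repair gene Xpc. Of 21 p53 targets measured, none was called and the median change was -0.01. The smallest p was that of Ddit4 (-0.33, adjusted p = 0.309). Of 18 nucleotide excision repair genes none was called. Ddb2, the damage sensor, was lower in all 5 D1 mice than in any control (-1.48 to -1.24 against -1.17 to -0.62), with a change of -0.36 (adjusted p = 0.177), and Ercc1 changed by 0.16 (adjusted p = 0.625).

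The lists for drug and lipid metabolism had no called member at this dose. Those of Nrf2 targets (17 measured), CAR and PXR targets (13), other Cyp2 and Cyp3 enzymes (21), conjugation enzymes (40) and PPARalpha targets (24) had median changes between -0.08 and 0.02. Of 19 fatty acid synthesis genes 16 had a negative change, with a median of -0.16 and 1 at an unadjusted p under 0.05. Abcc3, a basolateral exporter of conjugates, changed by 0.48 (adjusted p = 0.441). Mlxipl, the carbohydrate response factor, changed by -0.32 (adjusted p = 0.186), Pcx, pyruvate carboxylase, by 0.26 (adjusted p = 0.427), Glyat by 0.21 (adjusted p = 0.575), Acot13 by -0.22 (adjusted p = 0.560) and Serpina1e by -0.23 (adjusted p = 0.655). Tbx3, a transcription factor of pericentral hepatocytes, changed by 0.69 (adjusted p = 0.290). The pericentral and periportal gene lists had medians of 0.11 and -0.01, and the hepatocyte secretory genes Alb, Apoa1 and Ttr and the urea cycle enzyme Cps1 changed by -0.17, 0.05, -0.07 and 0.19.

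Acute phase genes, which the liver makes in response to inflammation, were all above 0, but none was called. All 22 measured members had a positive change, with a median of 0.23, which was 0.13 without D0 mouse 5 and -0.01 on slides 1 and 2 alone. Saa2 was at 7.16, 7.00, 5.22, 8.65 and 7.57 in D0 and at 9.43, 8.77, 10.16, 7.92 and 8.51 in D1 (change 1.84, SE 0.50, adjusted p = 0.157). Saa1 changed by 1.57 (adjusted p = 0.324). The groups overlapped for both through D0 mouse 4, the highest control, and D1 mouse 8 was the highest of all. The neutrophil markers, 3 measured of 5, moved in the same mice: their mean log2 ratio was 2.23 in D0 mouse 4 and 3.39 in D1 mouse 8, and it was between 0.19 and 1.35 in the other 8. Their part in the acute phase values was not tested. In bulk tissue, more cells of a type and more RNA per cell cannot be told apart.

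The interferon and heat shock lists, which do not include Shfl, were mostly below 0 without a called member, and both list medians were negative in all settings tried. Of 22 interferon-stimulated genes, 20 had a negative change, with a median of -0.28, and 5 (22.7%) had an unadjusted p under 0.05, against 6301 of 12044 genes with a negative change and 5.32% with such a p. The mean log2 ratio of the list overlapped between D0 (-0.45 to 0.33) and D1 (-0.41 to -0.24), through D0 mouse 1 as the lowest of all. These genes included Stat2 (-0.43, adjusted p = 0.215), Oas2 (-0.62, adjusted p = 0.243, called without D0 mouse 5 at -0.78), Ifi44 (-0.52, adjusted p = 0.351) and Ifit3 (-0.35, adjusted p = 0.554). Of 18 heat shock genes 17 had a negative change, with a median of -0.22. Dnajb1 changed by -0.38 (adjusted p = 0.280), Dnaja1 by -0.38 (adjusted p = 0.646) and Hspa1a by -0.68 (adjusted p = 0.462). Ddit3, a transcription factor of the unfolded protein response, was at -2.02 to -1.74 in D0 and -2.47 to -2.24 in D1, without overlap and with D0 mouse 5 among the controls. Its change of -0.50 (SE 0.08) had an adjusted p of 0.00665 but was under 1.5-fold. Herpud1, of the same pathway, changed by -0.41 (adjusted p = 0.488, D0 mouse 5 flagged and dropped). The glucocorticoid-induced gene Tsc22d3 changed by -0.51 (adjusted p = 0.414) and the mitotic gene Birc5 by -0.45 (adjusted p = 0.240).

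No cell type marker was called. Kupffer cell markers, 6 of 6 measured, had a mean log2 ratio of 2.76 to 3.91 in D0 and 3.05 to 3.98 in D1. Markers of sinusoidal endothelium were at 2.65 to 3.21 and 2.81 to 3.37 (Clec4g changed by 0.25, adjusted p = 0.615), and those of stellate cells at -1.68 to -1.37 and -1.77 to -1.15. T cell markers (5 of 6 measured) were at -0.50 to -0.11 and -0.56 to -0.17, red blood cell markers (3 of 4) at 3.62 to 4.43 and 4.03 to 4.38, B cell markers (2 of 5) at -3.43 to -3.04 and -3.50 to -2.85, cholangiocyte markers (3 of 6) at -2.92 to -2.48 and -2.87 to -2.43, and pancreas markers (2 of 5) at 0.73 to 1.08 and 0.54 to 1.27. No marker of fat or skeletal muscle passed the filter.

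Compared with the higher doses, which share the controls, the called probes had a median difference of -0.02 for D2 minus D1 and of 0.14 for D3 minus D1. Of the 54 decreases, 45 had a D3 mean above the D1 mean, towards the controls. At D2, 32 of the 55 called probes had a mean below the D1 mean. The decreases were chosen for low D1 values, so another group lying nearer the controls is partly expected from that choice. Neat1 had group means of -2.65 ± 0.17 (SD, n = 5) at D1, -2.88 at D2 and -2.59 at D3. For Ccnl2 the changes against the controls were -1.44 at D1, -1.54 at D2 and -1.30 at D3, for Shfl -0.93, -1.19 and -0.97, and for Rnu2-10 0.91, 0.84 and 0.49. Dido1 (-1.34, -1.27 and -0.90), Ogt (-0.83, -0.71 and -0.34) and Clec2d (-1.15, -0.78 and -0.37) were closer to the controls at D3 than at D1. Tested directly in the model of all 4 dose groups, whose spread includes that of the controls, D2 minus D1 had no called probe by limma, with 1243 at an unadjusted p under 0.05. D3 minus D1 had 4 called probes (0.0176%) and 2682 at an unadjusted p under 0.05, and none of the 4 was among the 55. Pigt, of the GPI transamidase, was higher at D3 (1.58 to 2.17) than at D1 (0.29 to 0.74), with a difference of 1.44 (adjusted p = 0.0144). Srsf5 was at -1.83, -1.71, -1.26, -1.79 and -1.40 in D1 and at -0.63, -0.48, -0.38 and -0.24 in D3, a difference of 1.16 (adjusted p = 0.0400). Gm4759 differed by -0.72 (adjusted p = 0.0400). These calls were fragile. Their number was 26 with slide as a block, 0 with median centring and 0 to 43 when any 1 of the 9 mice was left out.

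**Figure D4:**
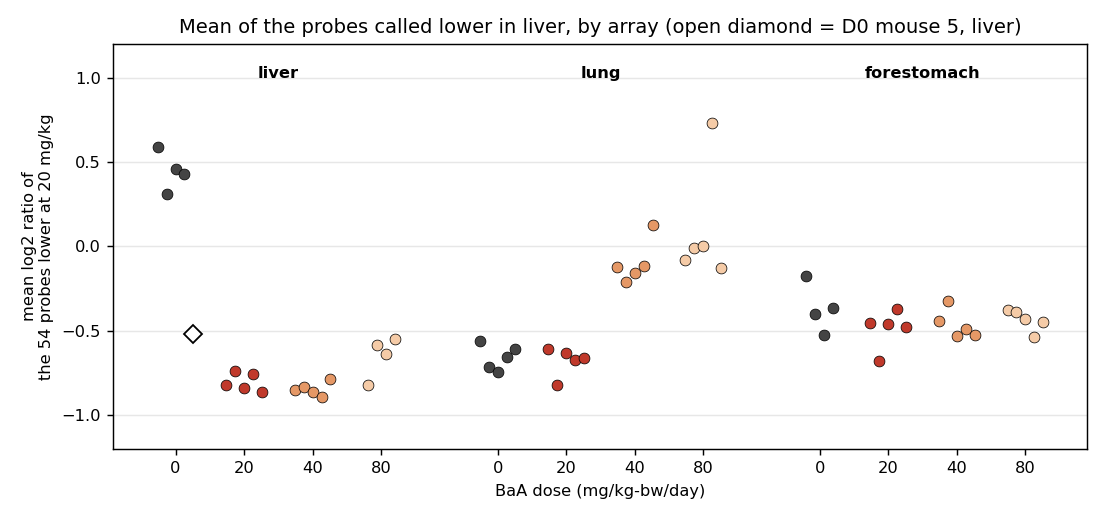
Mean log2 ratio (vertical axis) of the 54 probes called lower in liver at 20 mg/kg, for every array of liver, lung and forestomach by BaA dose (groups D0 to D3), with 1 point per array and an open diamond for the liver of D0 mouse 5. Liver controls 1 to 4 lie at 0.31 to 0.59, all dosed livers lie below -0.54, and the lungs at D2 and D3 lie above those at D0 and D1.

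The same 54 probes were measured in the other tissues of these mice. Their mean log2 ratio was -0.74 to -0.56 in D0 lung and -0.82 to -0.61 in D1 lung, and -0.52 to -0.18 and -0.68 to -0.37 in D0 and D1 forestomach. In level, the D1 livers overlapped the D1 lungs and lay below all D0 and D1 forestomachs, and D0 livers 1 to 4 lay above both tissues. In lung the score was higher at the upper doses, at -0.21 to 0.13 in D2 and -0.13 to 0.73 in D3, whereas in liver it stayed at -0.89 to -0.79 and -0.82 to -0.55. The probes were chosen on the liver contrast, so these levels are a description.

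To ask whether the effect at 20 mg/kg differed between tissues of the same mice, the change in lung was subtracted from that in liver. Of 21868 probes tested in both, 32 were called (0.146%), all more negative in liver, and 1332 had an unadjusted p under 0.05. The 55 liver probes had a median change of -0.01 in lung, and 26 of them were called in this test. The test contains the liver change on which the 55 were chosen, so that choice raises the number called among them. Among the probes with a symbol these were led in size by Neat1 (-2.09, adjusted p = 0.0170), Col5a3 (-2.07, adjusted p = 0.0363), Ccnl2 (-1.48, adjusted p = 0.00280) and Dido1 (-1.29, adjusted p = 4.77e-06). Lung itself had no called probe at D1. Against forestomach, 6 of 22074 probes were called (0.0272%), with 1304 at an unadjusted p under 0.05. They were a NEAT1 probe and Dido1 (-1.25), Shfl (-1.10), Srsf5 (-1.09) and Ogt (-0.90), more negative in liver, and Tbx3 (1.32), more positive. With the mouse as a replicate block, which pairs the tissues of an animal, the counts were 46 for lung and 22 for forestomach. Leaving out mouse 5 with all its tissues gave 110 and 93, leaving out any other mouse gave 11 to 31 and 2 to 5, and median centring gave 0 in both.

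**Figure D5:**
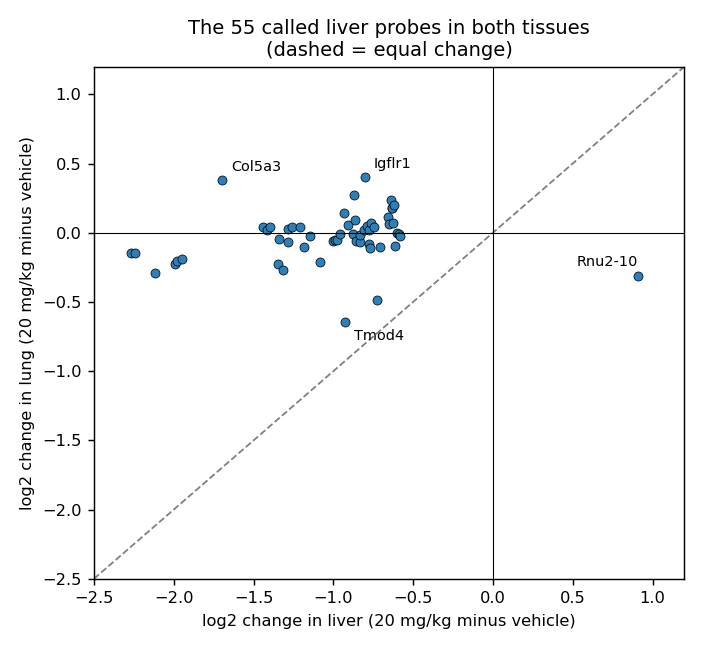
Log2 change at 20 mg/kg (D1 minus D0) of the 55 called liver probes in liver (horizontal axis) and in lung of the same mice (vertical axis), with 1 point per probe and a dashed line where both would be equal. Nearly all points lie along 0 on the lung axis, with a median of -0.01, and Tmod4 (-0.64) and Igflr1 (0.40) are at the ends of the lung range.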

How the data were processed

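Liver, lung and forestomach RNA was measured by the authors on 2-colour Agilent mouse arrays. Per the file headers, the deposited scanner files hold spot intensities on a linear scale from Feature Extraction 10.7.3.1. A table of log2 ratios deposited by the authors had been normalised by LOWESS without background correction. It correlated with the ratios used here at 0.996 to 0.998 per array (column medians -0.030 to -0.022) and served as an alternative. No dyes were swapped, and the ratio is Cy5 (tissue) over Cy3 (reference).

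Median signals were normalised by loess within each array in limma 3.58.1 (R 4.3.3), with control spots at weight 0. Outlier-flagged spots (0.495%) were dropped and spots of 1 probe were averaged. Probes that exceeded background in Cy5 (the software's well-above-background flag) on 4 or more of 19 liver arrays were tested with lmFit and eBayes in 1 model of the 4 dose groups, two-sided, with Benjamini-Hochberg adjustment over all tested probes. A probe was called at an adjusted p of at most 0.05 and a fold change of at least 1.5. MAANOVA, which the study used, was replaced by limma, and 100 residual shuffles were run as an alternative. Tissue differences were fitted over all 58 arrays. The number of arrays limits the precision. The liver model pools the spread of the 4 dose groups for each probe. Where the controls varied more than the dosed mice, its SE and p are too small. The scripts were tested on simulated data.

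Of 55681 probes, 26413 matched 20018 RefSeq symbols by accession. List values use the brightest probe per gene. Named genes are all called probes with a symbol (at most 30 genes), the called members of each list or otherwise up to 4 with the smallest unadjusted p under 0.05, the AhR targets, Cdkn1a, Mdm2, Ccng1 and Xpc, up to 4 leading genes each way of the dose and tissue contrasts, and Alb, Apoa1, Ttr and Cps1. A gene that this rule names is not reported here. Members and lists were chosen with earlier results of these data known. No 2 liver arrays were identical. Each array is 1 mouse, and tissues with the same number are of the same mouse. Liver and lung deviations of a mouse correlated at 0.013 to 0.186.

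Alternatives were the authors' table, normexp (offset 50, on median signals, since the files hold no mean signals), median centring, between-array quantile scaling, processed signals, Cy5 alone, other filters, no fold minimum, the 10 arrays alone, slide or mouse as a block, and leaving out each mouse. Not analysed here were the liver of mouse 20, the forestomach of mouse 5 and probe sequences.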

Additional observations from a re-analysis of the deposited data

Results flagged for a closer look

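A sample far from the others in its group (Dixon's criterion at 95%) was found in 19 of 154 groups checked. Chance alone gives about 1 in 20 among independent groups. The groups here are mostly those of named genes, many of them named because D0 and D1 differed, so these shares are not directly comparable. In 12 of the 19 the far sample was D0 mouse 5, as the lowest control. The gap as a share of the group's range was 0.910 for Col5a3, 0.882 for Fam193b, 0.878 for Tmod4, 0.859 for Ankrd16, 0.847 for Lime1, 0.783 for Tmc4, 0.774 for Rabep2, 0.767 for Ccnl2, 0.758 for Pnn, 0.747 for Nxf1, 0.713 for Shfl and 0.744 for the mean of the 54 lower probes. D1 mouse 8 stood apart for Pcx (0.894, highest), Smg1 (0.817, highest), Echdc2 (0.754, lowest) and Tiparp (0.7104, highest). The others were D1 mouse 9 for Nxf1 (0.763, lowest), D1 mouse 10 for Cdkn1a (0.787, highest) and D0 mouse 2 for Nqo1 (0.712, highest).

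Effects that differed between tissues by the test of the difference itself numbered 32 probes for liver minus lung and 6 for liver minus forestomach. Among probes with a symbol, the leading log2 differences against lung were Neat1 (-2.09), Col5a3 (-2.07), Ccnl2 (-1.48) and Dido1 (-1.29). Those against forestomach, beside a NEAT1 probe at -1.97, were Dido1 (-1.25), Shfl (-1.10), Srsf5 (-1.09), Ogt (-0.90) and Tbx3 (1.32). Between the doses of 80 and 20 mg/kg-bw/day 4 probes differed, with Pigt (1.44), Srsf5 (1.16) and Gm4759 (-0.72) among them.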

How the results depend on the processing

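The count of 55 probes in liver at 20 mg/kg stayed within 1.5 times under 9 of 11 other settings that kept all 10 mice and the fold minimum (39 to 74, the highest with slide as a block). It moved to 18 with median centring, 2 with the 10 D0 and D1 arrays alone and 87 without a minimum fold, of which 85 were lower. Leaving out each mouse gave 22 to 168. Of the settings chosen after seeing the data, slides 1 and 2 alone gave 153 and the 10 arrays without D0 mouse 5 gave 138. For D3 minus D1, 4 probes moved to 7 with the authors' table, 0 with median centring and 26 with slide as a block, and leaving out each mouse gave 0 to 43. For D2 minus D1 the count was 0 in every setting. For liver minus lung, 32 moved to 0 with median centring and 58 with slide as a block, leaving out each mouse gave 11 to 110, and pairing by the mouse as a replicate block gave 46. For liver minus forestomach, 6 moved to 2 with the authors' table, 0 with median centring, 32 with slide as a block and 22 with the mouse as a replicate block, and leaving out each mouse gave 2 to 93. The cause of these moves was not tested. Of 1666 values of the 76 named genes under alternatives, 1441 kept their side of the threshold, 213 lost the threshold and 12 gained it. Sign changes numbered 43, in 12 uncalled genes, and none was in a called gene.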
